A study of Mus musculus with 12 samples.

Results

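Gene expression across the transcriptome was compared between skeletal muscle of mice injected with interleukin 8 (IL-8) and skeletal muscle of mice injected with vehicle. This comparison takes 8 of the 12 arrays of the series, 5 from IL-8-injected and 3 from vehicle-injected mice, and 23185 of the 25206 rows of the value table, namely those with exactly 1 gene symbol. The mice were male C57BL/6J animals of 8 weeks with no transgene or deletion named, and the tissue was the whole tibialis anterior (TA), a fast hindlimb muscle. The IL-8 group received 50 µg/kg of recombinant human IL-8 in 0.1% BSA into the peritoneum every other day over 6 days, the vehicle group received the BSA alone, and muscle was taken on day 7. Replicates carry the numbers 1, 2 and 4 for vehicle and 1 to 5 for IL-8. The remaining 4 arrays, from mice given the mouse chemokine KC, enter no value below other than one alternative fit.

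IL-8 is a human CXC chemokine that draws neutrophils into inflamed tissue through the receptors CXCR1 and CXCR2. Mice have no direct counterpart of its gene, but their Cxcr2 receptor, whose own ligands include KC (Cxcl1), responds to the human protein. Skeletal muscle is built of multinucleated fibers in which very large proteins hold the sarcomeres in register, a membrane skeleton ties them to the cell surface, and a calcium release system couples each action potential to contraction.

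All values are levels on the log2 scale, 1 per gene and array, and a difference of 1 in log2 is a doubling. A gene was said to have risen or fallen when its limma p-value, adjusted by the Benjamini-Hochberg method, was 0.1 or less and the groups differed 1.5-fold or more. By this rule 406 genes rose and 186 fell, and the background against which each list below is read is 1.75% of genes called higher, 0.802% called lower and 2.55% called in either direction. In the same fit 5022 of the 23185 genes had an unadjusted limma p under 0.05. Counts of such genes in the lists below are read beside that share of all genes. Over all genes the median log2 fold change was -0.07, and 38.7% of genes had a positive one. Centring each array on its median gave 83.9% of calls as higher, against 68.6% in the reported fit. Apart from Arrdc2 and the clock gene Per1 (both adjusted p = 0.046), every called gene had an adjusted p between 0.0908 and the limit of 0.1, so the calls stand or fall almost together. With 1 array left out, limma called 0 genes when that array was vehicle replicate 2 (2941 genes at an unadjusted p under 0.05) or 4 (3599), or number 2 (3896), 3 (4154) or 4 (3895) of the IL-8 group. It called 7 genes with number 5 of the IL-8 group left out, 1227 with number 1 left out and 3338 with vehicle replicate 1 left out. The p-values measure the spread between these mice, and in whole muscle fewer cells of a type and less RNA per cell cannot be told apart.

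Liver transcripts were high on 3 arrays. The mean level of 21 liver genes was 6.74, 6.40 and 6.00 in vehicle replicates 2 and 4 and IL-8 replicate 1, and 2.75 to 2.94 on the other 5 arrays. These 3 are called the liver-transcript arrays, and the main results below are also given as the difference among these 3 (1 IL-8 array, 2 vehicle arrays) and among the other arrays (4 IL-8 arrays, vehicle replicate 1), with no test since each set has a group of 1 array. With the liver-transcript arrays as a block in limma, 0 genes were called (2701 at an unadjusted p under 0.05) and the smallest adjusted p was 0.113. Their part in the results was not tested beyond these values. The defining transcripts of the labelled tissue were present, since 12 fast-fiber genes, among them skeletal actin (Acta1), muscle creatine kinase (Ckm) and fast myosin (Myh4), lay between 8.19 and 12.6 on every array, far above the median level of 3.38 over all genes.

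Some genes of the giant proteins of the sarcomere rose in IL-8-injected mice. Of 44 genes for giant sarcomere, Z-disc and M-band proteins, 8 rose (18.2%), 0 fell and 36 did not pass, and the median log2 fold change was 0.48. Of 18 genes for sarcomeric actins, troponins, tropomyosins and myosin light chains, limma called 0 in either direction and 0 had an unadjusted p under 0.05. Their median log2 fold change was -0.13, and 3 of the 18 were above 0. No test of the difference between these lists was made.

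Flnc encodes filamin C, which crosslinks actin at the Z-disc. Its level was 7.78, 6.66 and 6.91 on the vehicle arrays (replicates 1, 2 and 4, the order used throughout) and 7.73, 9.13, 8.59, 8.81 and 8.78 on the IL-8 arrays (replicates 1 to 5). It rose by a log2 fold change of 1.49 (standard error 0.32), although IL-8 replicate 1 lay just below vehicle replicate 1, so that 4 of 5 IL-8 arrays were above all vehicle arrays. Myom2, a myosin-binding protein of the M-band, was at 8.90, 7.62 and 8.28 with vehicle and at 9.13, 9.68, 9.44, 9.73 and 9.43 with IL-8. The groups did not overlap, and the log2 fold change was 1.21 (0.25). Its relative Myom1 rose by 0.89 (0.19), from 9.54, 8.84 and 9.14 to 9.64, 10.10, 10.04, 10.17 and 10.34. Cmya5, a Z-disc protein also called myospryn, stood at 9.28, 8.63 and 8.95 with vehicle and at 9.48, 9.96, 9.88, 10.27 and 10.24 with IL-8 (log2 fold change 1.01, standard error 0.20). For Cmya5, Myom1 and Myom2 all 5 IL-8 arrays were above all vehicle arrays, as was the case for 4.6% of all genes, and the lowest IL-8 array was in each case the one with liver transcripts.

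The other called members of this list were chosen after their values were seen. Speg, a kinase of the muscle triad, had the largest log2 fold change among them at 1.53 (0.33). Titin (Ttn), the molecular spring that spans the sarcomere from Z-disc to M-band, was already at 11.09, 10.31 and 10.42 with vehicle and at 11.09 to 11.54 with IL-8 (0.76, 0.18). Nebulin (Neb), the ruler of the thin filament, differed by 0.67 (0.17) and Nrap, which binds nebulin at the ends of the fiber, by 0.84 (0.20). In the thin filament list the smallest p-values belonged to Tnnc2, the fast troponin C, and Myl1, a fast myosin light chain. Tnnc2 was at 12.61, 12.79 and 12.58 with vehicle and 12.63, 12.37, 11.93, 12.17 and 12.45 with IL-8, and its log2 fold change of -0.35 (0.16) did not pass (adjusted p = 0.24). Values of this size lie near the top of the array's range.

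Among the liver-transcript arrays the median log2 difference of the giant sarcomere list was 0.36, among the other arrays it was 0.26, and the block gave 0.29. Vehicle replicate 1 averaged 8.24 over this list and IL-8 replicate 1 averaged 8.21. The means of vehicle replicates 2 and 4 were 7.78 and 7.88, and those of IL-8 replicates 2 to 5 were 8.32 to 8.61. For the thin filament list the same differences were -0.02 and -0.11.

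**Figure D1:**
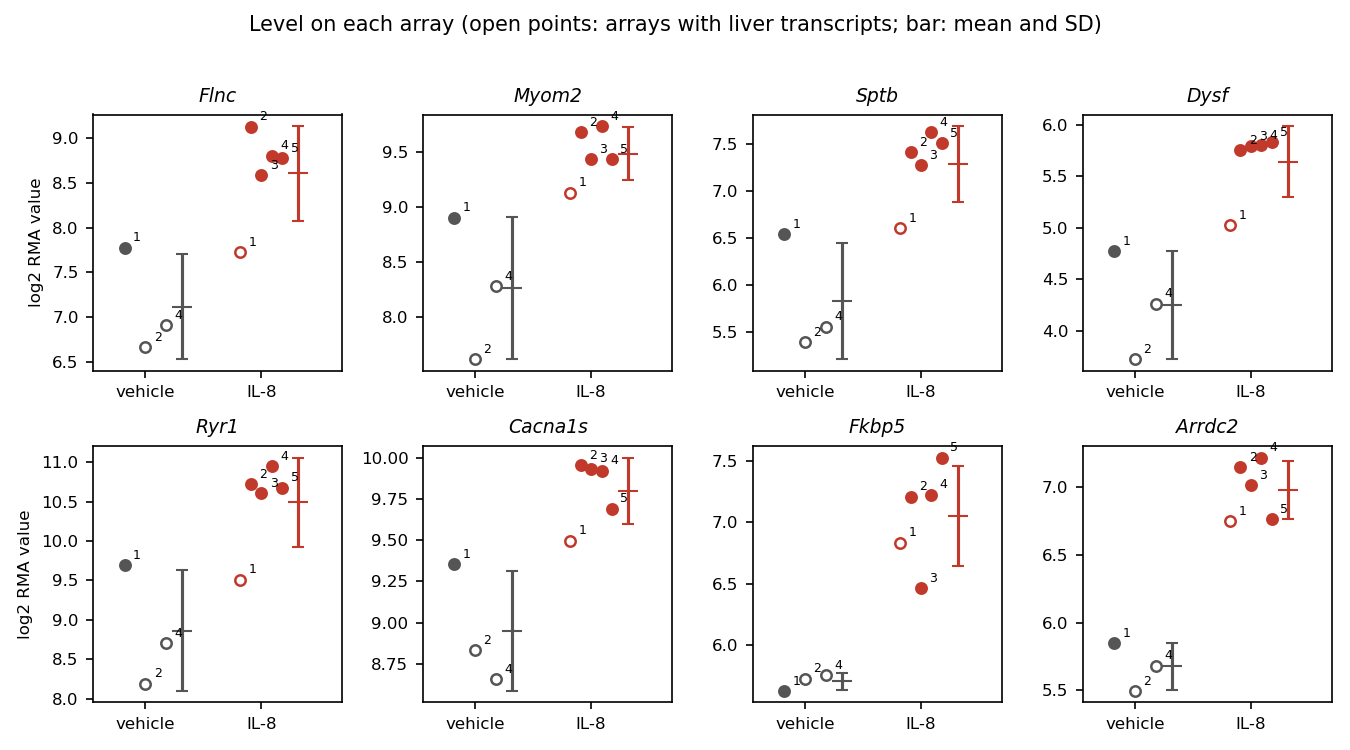
Log2 RMA value (vertical axis) of 8 genes on each of 3 vehicle and 5 IL-8 arrays, with the replicate number beside each point, open points for the liver-transcript arrays, and bars for the mean and SD of each group. In the sarcomere, membrane and calcium release genes vehicle replicate 1 and IL-8 replicate 1 lie near each other between the groups, whereas for Fkbp5 and Arrdc2 vehicle replicate 1 lies with the other vehicle arrays, at 5.63 and 5.85.

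The membrane skeleton had the largest share of members called among the lists described here. This system joins dystrophin, spectrins, integrins and cytolinkers to the sarcolemma. Of 33 genes tested, 9 rose (27.3%), 0 fell and 24 did not pass, with 31 above 0 and a median log2 fold change of 0.55. In 13 of the 33, all IL-8 arrays were above all vehicle arrays, as was the case for 4.6% of all genes. Dysferlin (Dysf), which seals tears in the fiber membrane, was at 4.77, 3.72 and 4.26 with vehicle and at 5.03, 5.75, 5.79, 5.80 and 5.83 in IL-8 replicates 1 to 5. The spread among IL-8 replicates 2 to 5 was narrow, and the groups did not overlap (log2 fold change 1.39, standard error 0.25). Beta spectrin (Sptb), a rod that links ankyrins and actin below the membrane, was at 6.54, 5.39 and 5.56 with vehicle and at 6.60, 7.41, 7.27, 7.63 and 7.51 with IL-8.

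Integrin alpha 7 (Itga7), the laminin receptor of muscle fibers, rose from 5.80, 5.13 and 5.56 to 6.31, 6.48, 6.33, 6.51 and 6.90 (log2 fold change 1.01, standard error 0.18). Talin 2 (Tln2), which anchors integrins to actin, rose from 5.91, 5.26 and 5.25 to 6.17, 6.47, 6.64, 6.61 and 6.35 (0.98, 0.18). Further called members, chosen after their values were seen, were the cytolinkers plectin (Plec, 1.40) and dystonin (Dst, 1.30), dystroglycan (Dag1, 1.07), ankyrin 3 (Ank3, 1.06) and talin 1 (Tln1, 0.59). Dystrophin itself (Dmd) was at 7.84, 7.51 and 7.36 with vehicle and at 7.83, 7.65, 8.40, 8.17 and 8.70 with IL-8, and its log2 fold change of 0.58 (0.23) did not pass (adjusted p = 0.18). The list's median was 0.52 within the 3 liver-transcript arrays and 0.37 outside them.

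Excitation-contraction coupling runs from the voltage sensor of the T-tubule to the calcium release channel of the sarcoplasmic reticulum. Of 30 genes of this system 4 rose (13.3%) and 0 fell, with a median log2 fold change of 0.30 (0.38 within the liver-transcript set, 0.13 outside it). The release channel Ryr1 was at 9.69, 8.19 and 8.71 with vehicle and at 9.51, 10.72, 10.60, 10.95 and 10.68 with IL-8. It rose 3.09-fold, but IL-8 replicate 1 fell below vehicle replicate 1. The voltage sensor Cacna1s rose 1.81-fold, from 9.36, 8.83 and 8.66 to 9.50, 9.96, 9.94, 9.93 and 9.69, with no overlap. Its accessory subunit Cacna2d1 rose 1.56-fold and sarcalumenin (Srl), a calcium-binding protein of the reticulum, rose by 0.59 in log2. Of 19 sarcolemmal channel and sodium pump genes, 3 rose (15.8%). Kcnc4, a fast potassium channel, rose from 6.39, 5.51 and 6.09 to 6.81, 6.75, 6.89, 7.07 and 7.38. Atp1b2, a beta subunit of the sodium pump, had values of 8.41, 6.35 and 7.24 with vehicle and 8.32, 8.98, 8.71, 9.11 and 8.83 with IL-8, a 2.74-fold rise in the pooled fit. The difference in Atp1b2 was 0.50 in log2 among the arrays other than the liver-transcript ones. Abcc9, the sulfonylurea receptor subunit of the KATP channel, rose 1.69-fold. The median of the channel list was 0.49 within the 3 liver-transcript arrays and 0.06 outside them.

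Several genes of motor proteins rose. Of 24 unconventional myosin genes 3 rose (12.5%) with a family median of 0.04. Myo18b, which is needed for sarcomere assembly, rose from 7.11, 6.38 and 6.23 to 7.22, 8.07, 7.95, 8.23 and 8.35. Myo18a was at 5.90, 5.02 and 5.03 with vehicle and at 5.98, 6.82, 6.57, 6.87 and 7.14 with IL-8, and Myo1c, a motor that helps deliver the glucose transporter GLUT4 to the membrane in fat cells, rose 1.72-fold. Of 39 genes of kinesins, dyneins and their microtubule partners 6 rose (15.4%), with a list median of 0.22. The dynein heavy chain Dync1h1 rose 2.28-fold, from 6.49, 5.75 and 6.00 to 6.73, 7.18, 7.10, 7.36 and 7.96. Dctn1, the dynactin subunit that couples dynein to cargo, rose 1.96-fold and the microtubule-binding Clasp1 rose 1.73-fold. The kinesins Kif1c, Kif1b and Kif13a rose 1.75-, 2.02- and 2.06-fold with 4 of 5 IL-8 arrays above all vehicle arrays. Over the whole family of 38 kinesin genes, 3 rose (7.89%), 1 fell (2.63%) and the median log2 fold change was 0.003. The 1 that fell was Kif24, a kinesin of the centriole that is not in the list of 39. It was at 2.87, 2.98 and 3.14 with vehicle and 1.87, 2.09, 2.09, 2.25 and 2.43 with IL-8, a dim signal below the median level of all genes.

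**Figure D2:**
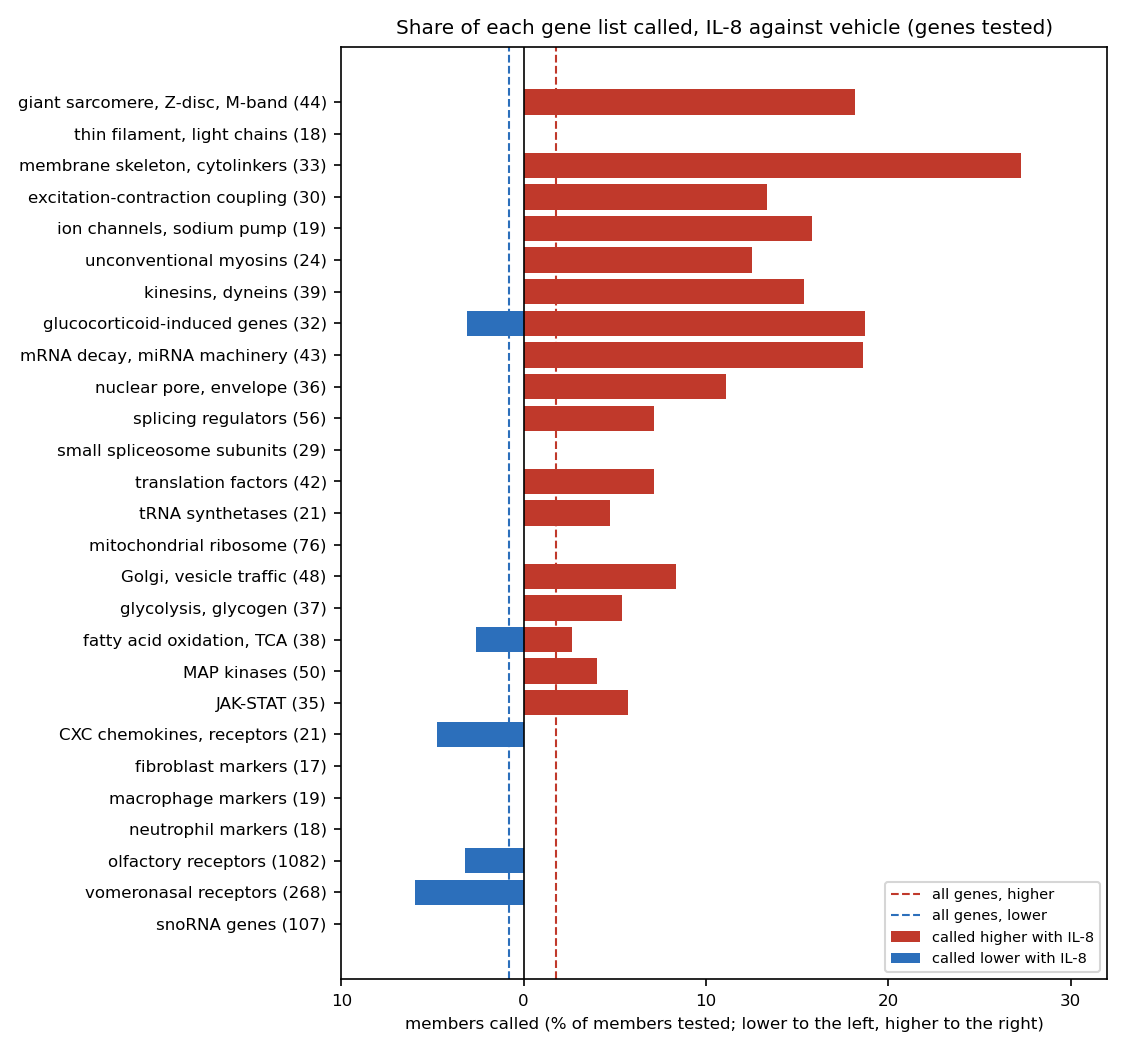
Share of the tested members of 27 gene lists called higher (red, to the right) and lower (blue, to the left) with IL-8, in percent of members, with the number tested in parentheses and dashed lines at the shares over all genes (1.75% higher, 0.802% lower). The membrane skeleton list reaches 27.3%, the giant sarcomere list 18.2% and the thin filament list 0%.

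MicroRNAs are short RNAs that pair through their seed, bases 2 to 8 counted from the 5′ end, with target messages and lower their output. Of 538 microRNA gene entries, 7 were called higher and 10 lower, or 1.30% and 1.86%, beside 1.75% and 0.802% over all genes. The 7 include Mir1a-1hg, a long host RNA and not itself a microRNA. A mature sequence from RefSeq (GRCm38.p6) was matched for 12 of these 17 genes. The following set shows sequences of 3 of the genes that rose and, of those that fell, 4 for which the value table holds other genes with the same seed, with the seed in capitals and all other bases in lower case.
mmu-miR-1a-1-5p (gene Mir1a-1, called higher): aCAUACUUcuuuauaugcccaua
mmu-miR-1839-5p (gene Mir1839, called higher): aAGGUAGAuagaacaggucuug
mmu-miR-5125 (gene Mir5125, called higher): uCUGCCUGggauuuccuugu
mmu-miR-181b-5p (gene Mir181b-1, called lower): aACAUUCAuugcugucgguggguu
mmu-miR-200c-3p (gene Mir200c, called lower): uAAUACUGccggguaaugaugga
mmu-miR-344d-3p (gene Mir344d-2, called lower): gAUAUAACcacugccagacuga
mmu-miR-680 (gene Mir680-1, called lower): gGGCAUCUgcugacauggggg
The arrays give 1 value per microRNA gene and do not tell its arms apart, so a sequence is shown for what the gene encodes and not as the product measured. For Mir1a-1 only the 5p arm was matched, so the capitals mark the seed of that arm alone. The 17 mature sequences matched had 17 different seeds.

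The muscle-specific microRNA cluster on chromosome 2 rose together with its host transcript. Mir1a-1 and Mir133a-2 are processed from the long RNA Mir1a-1hg, and the miR-1 and miR-133 families are the abundant microRNAs of striated muscle. Mir133a-2 was named by rule and the other genes of this paragraph were chosen after their values were seen. Mir1a-1 was at 2.02, 1.66 and 1.40 with vehicle and at 2.33, 2.53, 3.26, 2.66 and 2.56 in IL-8 replicates 1 to 5 (log2 fold change 0.98, standard error 0.21). Mir133a-2 was at 2.41, 2.00 and 2.28 with vehicle and at 2.86, 3.08, 2.85, 3.02 and 2.80 with IL-8 (0.70, 0.13). Both microRNA entries are dim, whereas the host Mir1a-1hg was bright, at 6.74, 5.79 and 5.85 with vehicle and at 6.77, 7.27, 7.18, 7.20 and 6.77 with IL-8 (0.91, 0.23). For all 3 the groups did not overlap. Since the host contains both microRNAs, their entries may read the same RNA and are not independent.

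The second copy of this pair lies on chromosome 18, as Mir133a-1 and Mir1a-2. Mir133a-1 rose from 4.00, 3.41 and 2.97 to 5.63, 4.59, 5.19, 4.29 and 4.80 (log2 fold change 1.44, standard error 0.30), while Mir1a-2 was at 2.08, 1.55 and 1.53 with vehicle and at 3.20, 2.16, 3.60, 1.45 and 1.94 with IL-8, with overlap and an adjusted p of 0.33. Copies of a microRNA gene give the same mature RNA, so their values are uncertain where probes read the shared part. Mir133b and Mir206, which share a locus on chromosome 1, differed by 0.08 (adjusted p = 0.76) and -0.13 (0.50), and Mir486, a microRNA of muscle and red cells, was at 4.77, 4.69 and 4.35 with vehicle and 3.96, 3.88, 4.21, 3.48 and 4.34 with IL-8, a difference of -0.63 that did not pass (0.12). Within and outside the liver-transcript set the differences were 0.80 and 0.74 for Mir1a-1, 0.72 and 0.53 for Mir133a-2 and 2.43 and 0.72 for Mir133a-1.

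**Figure D3:**
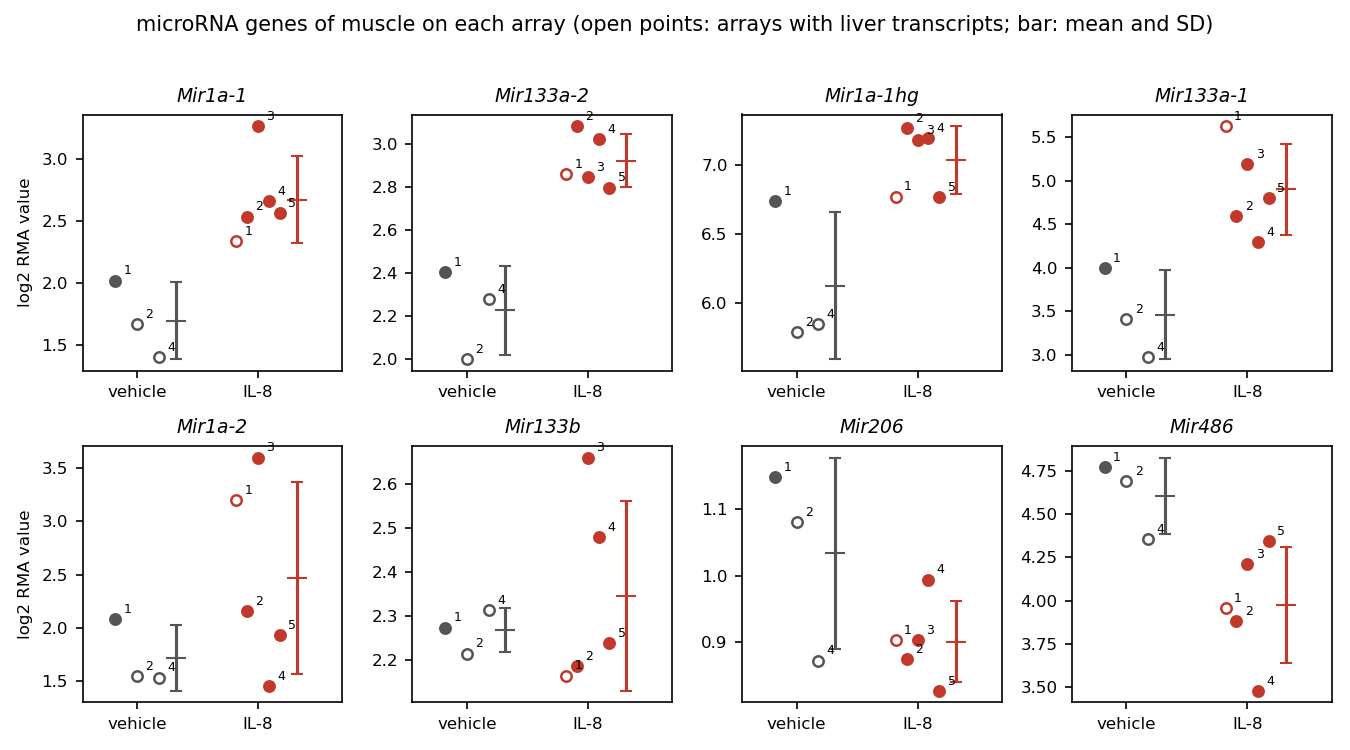
Log2 RMA value (vertical axis) of 8 microRNA genes of muscle or their host on each vehicle and IL-8 array, with open points for the liver-transcript arrays and bars for mean and SD. Mir1a-1, Mir133a-2, Mir1a-1hg and Mir133a-1 have all IL-8 arrays above all vehicle arrays, and Mir133b, Mir206 and Mir1a-2 overlap.

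Among the microRNA genes that fell, Mir669m-1 was at 3.57, 3.56 and 3.79 with vehicle and at 2.46, 1.59, 2.16, 2.27 and 2.85 with IL-8. Mir713 was at 2.32, 3.31 and 3.11 with vehicle and at 1.71, 1.60, 1.81, 1.31 and 2.09 with IL-8. Mir200c, of a family found in epithelia, fell from a mean of 2.73 ± 0.22 (SD, n = 3) to 1.91 ± 0.19 (SD, n = 5) with no overlap, and its seed sisters Mir200b and Mir429 differed by -0.10 and -0.24 without passing. Mir181b-1 fell by 0.69 in log2, and 5 other genes with the seed ACAUUCA, none of them called, differed by -0.15 to -0.47. Mir680-1 had the largest difference at -2.58, from 4.22, 6.03 and 6.23 to 3.42, 1.89, 2.43, 2.10 and 4.73, with overlap, while Mir680-3, which encodes the same mature RNA, differed by 0.34. Mir713, Mir200c and Mir181b-1 lie below the median level of all genes. In the machinery that makes and uses microRNAs, Xpo5, which exports precursors from the nucleus, rose 1.86-fold from 4.63, 3.93 and 4.18 to 4.97, 5.24, 4.81, 5.27 and 5.43. Tnrc6b, a scaffold of the silencing complex, rose 1.54-fold, and Ago2, its core nuclease, and Tnrc6a, both chosen after their values were seen, rose by 0.89 and 0.67 in log2. Drosha and Dicer1, which cut the precursors, differed by 0.64 (adjusted p = 0.11) and 0.83 (0.11).

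The list of mRNA decay and microRNA machinery as a whole had 8 of 43 genes higher (18.6%), 0 lower and a median of 0.36 (0.29 within the liver-transcript set, 0.17 outside it). It also holds Upf1, the helicase of nonsense-mediated decay, at 4.02, 3.96 and 3.36 with vehicle and 4.16, 4.84, 4.71, 4.58 and 4.81 with IL-8, and Edc3, an enhancer of decapping, which rose 1.53-fold. Other nuclear lists also held risen genes. Of 36 nuclear pore and envelope genes 4 rose (11.1%). Nup133, of the pore scaffold, rose from 5.21, 5.00 and 4.77 to 5.65, 5.89, 5.88, 5.74 and 5.72, with the groups apart, and the pore proteins Pom121 and Nup210 rose 1.57- and 1.81-fold. Of 56 splicing factors 4 rose (7.14%) with a median of 0.36 (0.35 within the liver-transcript set, 0.14 outside it). In 17 of the 56, all IL-8 arrays were above all vehicle arrays, beside 4.6% of all genes. The called genes were Sf3b2, at 5.45, 5.41 and 5.38 with vehicle and 5.76, 6.14, 6.05, 6.13 and 6.24 with IL-8, the spliceosome helicase Snrnp200 (1.83-fold), the scaffold Srrm2 (1.90-fold) and Prpf8, the catalytic core protein (1.96-fold). The small Sm and Lsm subunits of the same machine had a median of -0.27 over 29 genes, limma called 0 of them and 7 had an unadjusted p under 0.05. Snrpe, an Sm protein, had log2 values of 6.03, 6.41 and 5.94 with vehicle and 5.71, 5.45, 5.56, 5.58 and 5.65 with IL-8.

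Other machines of RNA and protein synthesis held single called genes. Of 42 translation factors 3 rose (7.14%), among them the kinase activator Gcn1, from 4.73, 4.25 and 4.41 to 5.07, 5.57, 5.46, 5.72 and 5.85, and Eif4ebp2, an inhibitor of cap-dependent initiation (1.69-fold). Of 21 tRNA synthetases 19 were above 0 and 1, Aars, rose 1.57-fold, with a median of 0.30. Of 76 mitochondrial ribosome genes limma called 0 (16 at an unadjusted p under 0.05), with a median of -0.14. Polr1a, the catalytic subunit of RNA polymerase I, rose 1.82-fold and Mybbp1a, a nucleolar protein, rose 1.70-fold, while Tma7 was at 9.20, 10.51 and 9.94 with vehicle and 9.04, 7.63, 8.93, 8.27 and 8.68 with IL-8. Of 48 genes of Golgi and vesicle traffic 4 rose (8.33%), led by Gbf1, an activator of Arf GTPases, from 6.55, 5.48 and 5.74 to 6.58, 6.98, 6.92, 7.13 and 7.15, and Sec16a, which organizes exit sites of the endoplasmic reticulum (1.97-fold). Limma called 0 of 51 chaperone genes (13 at an unadjusted p under 0.05) and 0 of 31 mitochondrial import genes (6).

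Genes that glucocorticoids are known to induce were higher on all IL-8 arrays in several cases. For Arrdc2 and Fkbp5 vehicle replicate 1 did not stand apart from the other vehicle arrays. It did for Zbtb16 (7.12 against 6.37 and 6.31) and Klf15 (5.39 against 4.66 and 4.74). Of 32 listed genes 6 rose (18.8%), 1 fell (3.13%) and 25 did not pass. Arrdc2, an arrestin-domain protein, had the smallest adjusted p of any gene outside the clock (0.046). It was at 5.85, 5.50 and 5.68 with vehicle and at 6.75, 7.15, 7.02, 7.22 and 6.77 with IL-8. Its log2 fold change was 1.30 (standard error 0.15), with differences of 1.16 within the liver-transcript set and 1.19 outside it. Fkbp5, a cochaperone that holds the glucocorticoid receptor in check, was at 5.63, 5.73 and 5.75 with vehicle and at 6.83, 7.21, 6.46, 7.22 and 7.53 with IL-8, with differences of 1.09 and 1.48. Zbtb16, a transcription factor, rose from 7.12, 6.37 and 6.31 to 7.35, 7.99, 7.90, 8.04 and 7.74, and Klf9 from 8.09, 7.62 and 7.85 to 8.36, 8.46, 8.59, 8.63 and 8.45.

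Chosen after their values were seen, Glul, the glutamine synthetase, and Klf15, a regulator of amino acid use in muscle, rose by 0.86 and 0.99 in log2. Hsd11b1, the enzyme that regenerates active glucocorticoid inside cells, fell from 5.49, 5.44 and 5.30 to 5.15, 4.77, 4.68, 4.65 and 4.19. Of other well-known members, Tsc22d3 was at 7.55, 7.32 and 7.87 with vehicle and 8.16, 7.90, 7.87, 8.04 and 7.93 with IL-8 without passing (log2 fold change 0.40, adjusted p = 0.16), and Sgk1 and Ddit4 differed by -0.03 and -0.12. The receptor gene Nr3c1 lay at 7.13 to 7.39 on all 8 arrays, with a log2 fold change of -0.06 (adjusted p = 0.79).

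A window of 300 bases, most of it before the transcription start, was read from RefSeq (GRCm38.p6) for 25 of these 32 genes. The full receptor element, the half-sites AGAACA and TGTTCT set 3 bases apart, searched on both strands, occurred in 1 of the 25, Sgk1, which was not called, and in 0.0115% of 17452 tested genes with such a window. A shorter form contained in it, GAACA and TGT set 3 bases apart, occurred in Sgk1 and Mt1, and in 1.05% of all genes, 0.912% of those that rose and 3.25% of those that fell. A match is no evidence of binding, and receptor sites often lie outside this window.

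Promoters of called genes differed in base composition by direction. Where a gene had several starts, the highest value was taken. The median count of CG pairs in the window was 26.0 for 329 genes that rose, 15.0 for all genes and 3.0 for 123 genes that fell, and the median GC content was 64.7%, 57.3% and 45.3%. Among genes above the median level, the medians were 26.0, 22.0 and 16.5 CG pairs, so part of the contrast goes with level. The 2 windows below belong to the gene with the smallest p in each direction that has a single listed start, with CG pairs in capitals. The promoter of Arrdc2 (risen, chr8:70839671-70839970, minus strand, 17 pairs) and that of Mptx2, a pentraxin (fallen, chr1:173277707-173278006, minus strand, 2 pairs), read as follows.
Arrdc2: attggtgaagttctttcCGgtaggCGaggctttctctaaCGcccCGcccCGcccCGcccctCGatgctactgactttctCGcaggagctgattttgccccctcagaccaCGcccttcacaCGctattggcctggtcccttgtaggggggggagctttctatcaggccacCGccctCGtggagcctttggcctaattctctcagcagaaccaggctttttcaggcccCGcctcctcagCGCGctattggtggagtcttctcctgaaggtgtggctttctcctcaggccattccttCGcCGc
Mptx2: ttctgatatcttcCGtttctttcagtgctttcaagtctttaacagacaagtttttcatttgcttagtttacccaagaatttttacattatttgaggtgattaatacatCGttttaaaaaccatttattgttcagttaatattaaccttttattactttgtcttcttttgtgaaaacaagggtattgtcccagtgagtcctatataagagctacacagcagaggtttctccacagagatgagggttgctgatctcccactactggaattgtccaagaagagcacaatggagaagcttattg
Mptx2 was at 3.42, 3.97 and 3.48 with vehicle and at 2.49, 2.61, 2.20, 2.59 and 2.11 in IL-8 replicates 1 to 5, with no overlap.

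Metabolic lists held a few called genes each. Acacb, the muscle acetyl-CoA carboxylase whose product restrains fatty acid entry into mitochondria, was at 6.75, 4.69 and 5.46 with vehicle and at 6.59, 7.59, 7.53, 7.60 and 7.65 with IL-8, a 3.38-fold rise with overlap. Mlxip, a glucose-responsive transcription factor, rose 2.21-fold. Hexokinase 2 (Hk2), the first step of glycolysis in muscle, was at 7.61, 6.67 and 6.96 with vehicle and 7.57, 8.57, 8.34, 8.55 and 7.89 with IL-8 (log2 fold change 1.10), and Phka1, a regulatory subunit of phosphorylase kinase, rose 1.59-fold. Pyruvate carboxylase (Pcx) rose 2.14-fold with no overlap, from 4.36, 3.73 and 4.38 to 5.00, 5.43, 4.77, 5.58 and 5.51. In all, 2 of 37 glycolysis and glycogen genes rose (5.41%) and 2 of 34 lipid synthesis genes (5.88%), beside 1.75% of all genes. Of 38 genes of fatty acid oxidation and the TCA cycle, 1 rose (2.63%) and 1 fell (2.63%). The median of the last list was 0.50 within the 3 liver-transcript arrays and -0.24 outside them, and vehicle replicate 1 had its highest mean of all 8 arrays, at 8.86. Glrx3, a glutaredoxin of iron handling, fell 1.67-fold and Fabp4, a fatty acid binding protein of fat and vessel cells, fell from 9.47, 10.07 and 9.26 to 8.98, 8.88, 8.97, 8.72 and 8.63. Perilipin 4 (Plin4), which coats lipid droplets, rose instead, from 6.52, 5.99 and 5.87 to 6.75, 7.40, 7.40, 7.53 and 7.72.

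Solute carriers, a family of 367 transporter genes, had 5 genes higher and 0 lower, and its median log2 fold change was -0.01. The share of the family called higher was below the 1.75% of all genes, so the genes named next are single calls. Slc7a8, a carrier of neutral amino acids, rose 2.72-fold, at 6.20, 4.96 and 4.70 with vehicle and 6.18, 6.82, 6.69, 6.97 and 6.98 with IL-8. Slc30a1, the zinc exporter of the cell surface, rose 1.68-fold with no overlap, and Slc16a10, a carrier of aromatic amino acids, 1.52-fold. Potassium channel genes had 1 of 88 called (1.14%, higher), also below the share of all genes, and Rab GTPase genes 0 of 73 (12 at an unadjusted p under 0.05).

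Signaling pathways showed few calls and medians near or above 0. Of 35 JAK-STAT genes 2 rose (5.71%), the kinase Jak1, from 8.18, 7.74 and 7.72 to 8.44, 8.57, 8.45, 8.53 and 8.65, and the phosphatase Ptpn11 (1.57-fold). The list median was 0.30, with 0.42 within the liver-transcript set and 0.06 outside it. Of 50 MAP kinase genes 2 rose (4.0%), Map3k4 at 1.95-fold and Map2k3, an activator of p38, at 1.56-fold, with the groups apart for both. Of 41 Wnt genes 2 rose (4.88%), the receptor Fzd7 at 1.54-fold and the coactivator Bcl9l at 1.88-fold. Of 37 TGF-beta and BMP genes 1 rose (2.70%), the activin receptor Acvr1b, from 6.10, 5.82 and 6.09 to 6.55, 6.65, 6.55, 6.94 and 6.79. In the calcineurin and CaM kinase list Mef2d, a transcription factor of muscle genes, rose 2.40-fold with overlap. Among axon guidance genes, also active in vessels, Plxna2 (2.53-fold), Sema7a (1.70-fold) and the endothelial receptor Robo4 (1.68-fold) rose. Limma called 0 genes among 37 of the Notch and Hippo pathways (8 at an unadjusted p under 0.05), 33 receptor tyrosine kinases and ligands (11), 27 nuclear receptors (7) and 27 interferon-stimulated genes (5).

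The receptors of IL-8 were near or below the median level of all genes in whole muscle. Cxcr1 lay at 3.16 to 3.54 and Cxcr2 at 2.24 to 3.21 over the 8 arrays, and their log2 fold changes were -0.17 (adjusted p = 0.37) and 0.03 (0.95). The mouse Cxcr2 ligands Cxcl1, Cxcl2, Cxcl5 and Ppbp lay between 1.23 and 4.67, and none was called. Of 21 CXC chemokine and receptor genes 1 fell (4.76%), Cxcl13, a B cell attractant, from 3.98, 4.40 and 4.15 to 3.58, 3.34, 3.72, 3.52 and 3.49. Of 79 genes of interleukins and their receptors 1 was called (1.27%, higher), beside 1.75% of all genes. It was Il34, a ligand of the macrophage growth factor receptor Csf1r, which rose from 3.26, 3.42 and 3.52 to 4.11, 4.00, 4.06, 4.18 and 3.87 with no overlap (1.56-fold). Igkc, the constant region of the kappa light chain and the one lymphocyte marker of 18 called, was at 5.24, 4.75 and 4.77 with vehicle and at 4.03, 3.21, 3.87, 3.96 and 3.60 with IL-8.

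No marker of neutrophils, macrophages or fibroblasts was called, and levels of the latter 2 differed between arrays within each group. Of 18 neutrophil markers limma called 0 (1 at an unadjusted p under 0.05), the list mean was 2.57 to 2.77 with vehicle and 2.45 to 2.81 with IL-8, and the defining genes S100a8, S100a9, Ly6g, Ngp, Camp and Retnlg lay between 1.21 and 3.95. Of 19 macrophage markers 18 were below 0 with a median of -0.41 and 0 called (4 at an unadjusted p under 0.05). Cd14 had values of 4.39, 4.13 and 4.28 with vehicle and 3.88, 3.50, 3.81, 3.75 and 3.77 with IL-8. Of 17 fibroblast and progenitor markers 16 were below 0 with a median of -0.75 and 0 called (5 at an unadjusted p under 0.05). Decorin (Dcn), a matrix proteoglycan, was at 10.69, 11.03 and 10.69 with vehicle and 10.80, 9.83, 9.81, 10.18 and 9.63 with IL-8. For Dcn, IL-8 replicate 1 thus lay with the vehicle arrays. Dermatopontin (Dpt) was at 8.25, 8.81 and 7.89 with vehicle and 7.34, 7.73, 7.32, 7.47 and 5.80 with IL-8, with no overlap, but did not pass (adjusted p = 0.14 in limma). Among the liver-transcript arrays the macrophage and fibroblast medians were 0.18 and 0.04, against -0.71 and -0.55 among the others. Neither list median thus kept its direction in both sets. The markers named by rule were below 0 in both, within and outside the liver-transcript set. They were picked by their p-values in these same arrays, which favors a shared direction, so nothing about their lists follows from it. The differences were -0.33 and -0.68 for Cd14, -0.51 and -1.06 for the macrophage marker Folr2, -0.06 and -0.83 for Dcn, and -1.01 and -1.17 for Dpt. Of 44 collagen genes 1 was called (2.27%, higher), Col4a2, a basement membrane collagen, which rose 1.56-fold.

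**Figure D4:**
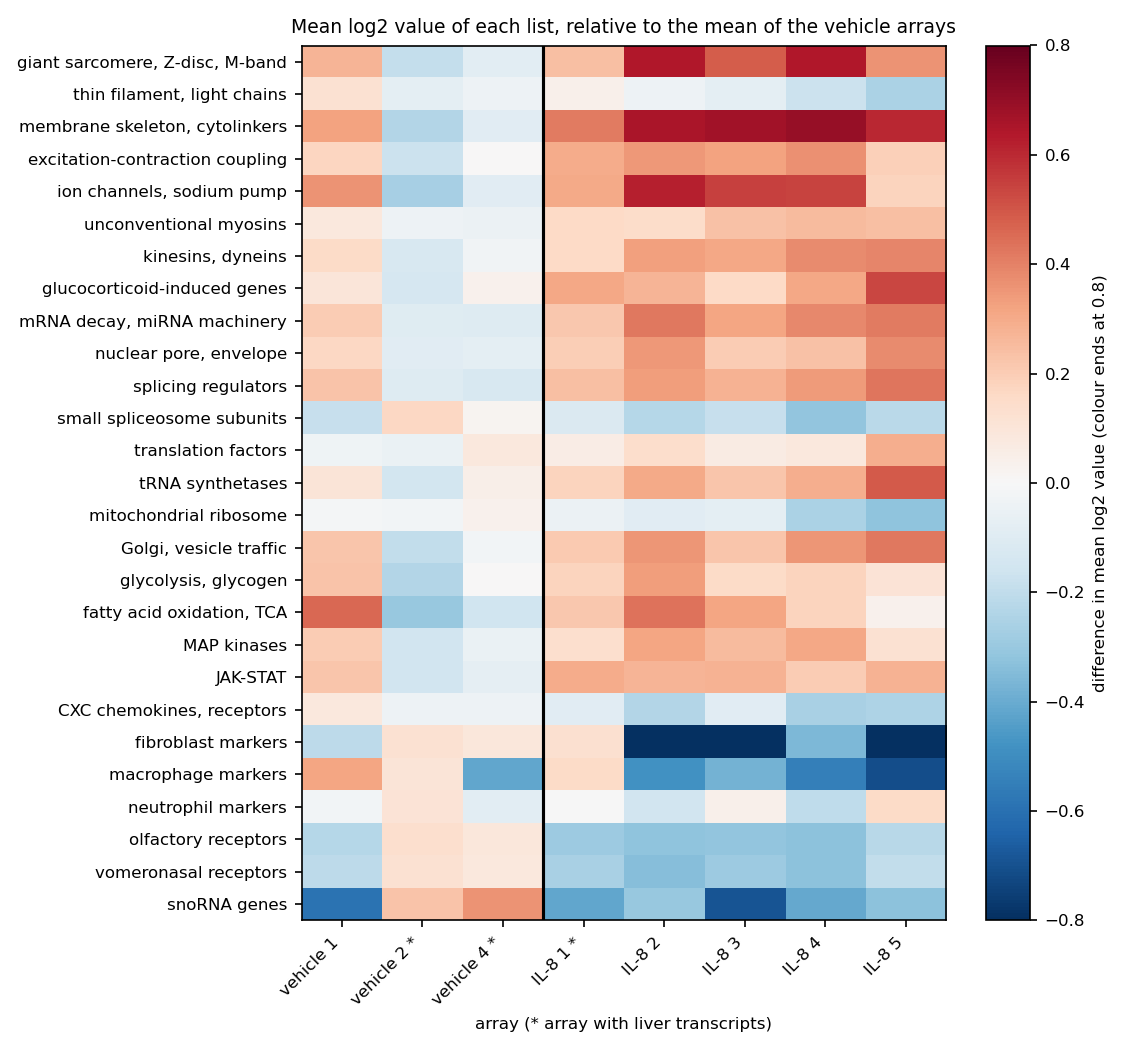
Difference of the mean log2 value of each of 27 gene lists from the mean of the 3 vehicle arrays (colour, in log2, ending at 0.8), for each array in columns, with the liver-transcript arrays starred. The giant sarcomere and membrane skeleton lists are highest in IL-8 replicates 2 to 5, and in vehicle replicate 1 the snoRNA list, at a mean of 6.22, and the olfactory receptor list, at 1.74, are below the other vehicle arrays.

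Families with little or no signal in muscle made up much of the lower side. Of 1082 olfactory receptor genes 35 fell (3.23%) and 0 rose, with a median log2 fold change of -0.27, and of 268 vomeronasal receptor genes 16 fell (5.97%) and 0 rose. These receptors serve smell and are not known as muscle products. The array means of the olfactory family were 1.74, 2.10 and 2.06 with vehicle and 1.68, 1.64, 1.65, 1.64 and 1.74 with IL-8, so the dimmest signals were raised on vehicle replicates 2 and 4 but not on IL-8 replicate 1, which also carries liver transcripts. In 172 of the 1082 olfactory genes all IL-8 arrays were below all vehicle arrays, as was the case for 6.43% of all genes. Olfr495, one of these, was at 2.11, 2.55 and 2.17 with vehicle and 1.23, 1.31, 1.43, 1.44 and 1.72 with IL-8. Among the arrays other than the liver-transcript ones the medians of the olfactory and vomeronasal families were -0.06 and -0.05. Among further dim groups, 5 of 200 immunoglobulin genes (2.5%), 16 of 1214 predicted Gm genes (1.32%) and 1 of 59 defensin genes (1.69%) were called lower, beside 0.802% of all genes. For 8 of 1614 Rik genes (0.496%) and 1 of 108 keratin genes (0.926%) the share was below or near that of all genes. Members of these families resemble one another, so probes may read related copies. The snoRNA genes, which guide the modification of ribosomal RNA, had a median of -0.46 over 107 entries with 0 called (32 at an unadjusted p under 0.05). Their means were 6.22, 7.04 and 7.17 with vehicle and 6.12 to 6.50 with IL-8, and the median was -0.72 within the 3 liver-transcript arrays and 0.12 outside them. Of 373 zinc finger (Zfp) genes 5 rose and 4 fell, or 1.34% and 1.07%.

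The called genes also differed in genomic span. The median span was 38.8 kb for the genes that rose, 2.75 kb for those that fell and 15.6 kb for all 23182 genes with an annotated span, and the median level was 5.89, 3.06 and 3.38. Protein-coding genes above the median level were put in 10 bins of equal size by span. In the bin of the shortest genes (0.304 to 4.33 kb) the median log2 fold change was -0.12, with 0.647% called higher and 2.31% lower, and in that of the longest (from 120.4 kb) it was 0.18, with 6.93% higher and 0.185% lower. The shortest and longest bins were at -0.07 and 0.24 among the liver-transcript arrays and at -0.06 and 0.06 among the others. Removing a trend on span from each array left 2 genes called by limma (5013 at an unadjusted p under 0.05), and the median of the giant sarcomere list was then 0.39.

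**Figure D5:**
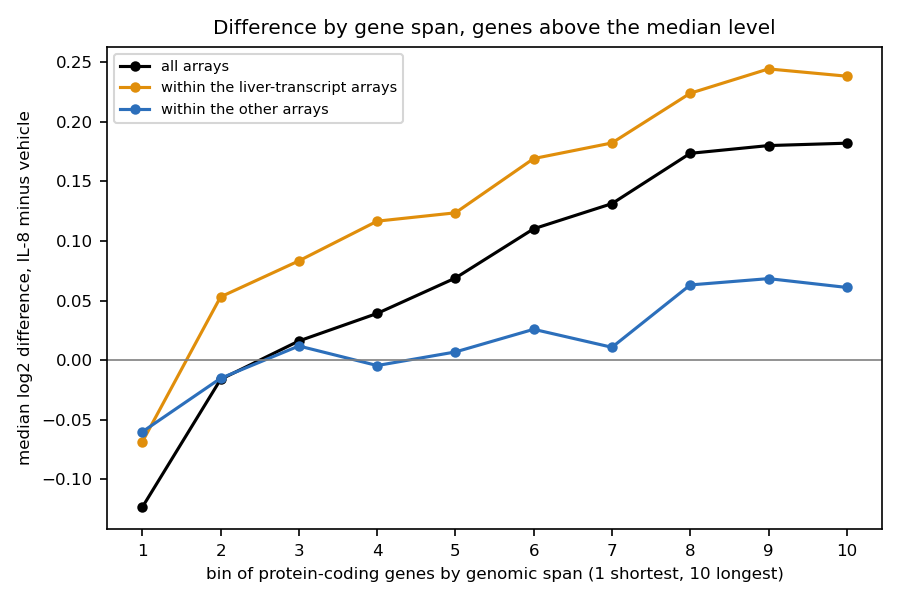
Median log2 difference between IL-8 and vehicle (vertical axis) in 10 bins of 10819 protein-coding genes above the median level, from the shortest (1) to the longest (10) genomic span, for all arrays and within each set of arrays. The line over all arrays climbs from -0.12 to 0.18, and the line among the other arrays ends at 0.06.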

How the data were processed

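Whole TA muscle RNA was measured on GeneChip mouse gene 2.0 ST arrays. The values the authors deposited are on the log2 scale and come from RMA (affy 1.36.1 and R 2.15.1 are named in the submitters' processing notes). RMA subtracts background, gives the probes of all arrays one distribution and combines them per gene. Array medians of the gene values still differed, at 3.32 to 3.48. Precision is limited by how many arrays each group has. Symbols came from the platform annotation, and all 23185 were matched to RefSeq by Entrez number, while 2021 unnamed rows were tested only in the alternative with every row.

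Groups were compared with limma 3.58.1 (lmFit, eBayes) in R 4.3.3 on the 8 arrays. The limits on adjusted p and fold change are those the study gives for its q-values, which came from another tool not run here. The 71 gene lists, the members and the liver-transcript arrays were chosen with earlier results of these data known, and lists are described by counts and medians without a test. Genes named are the 10 called genes with the largest change each way whose groups do not overlap, plus, from each list, at most 4 called members taken by p-value (where a list had none, its 2 lowest p-values). Not all of them are described. Ubiquitin, FoxO, oxidative phosphorylation and clock genes were left out of the names. Protein lengths were not analysed here. On simulated data of 23185 genes for this comparison (seed 1), limma recovered 79 of 100 genes with a change of 1 in log2. It recovered 97 of 100 with a change of 2, and 15 of its 191 calls were false. The simulated noise was independent between genes, with no pattern shared across an array such as the liver transcripts. These rates therefore do not carry over to the calls above. Alternatives were quantile normalization, centring, a filter on dim genes, all 12 arrays in one fit, the methods' t-test with unequal variances, its exact permutation form, the replicate block, the block for the liver-transcript arrays, removal of each array, removal of a span trend and testing every row. The differences within each set of arrays were added after seeing the data. Figures were drawn with matplotlib 3.10.9. Not every list is described, and 1 result is not reported here.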

Additional observations from a re-analysis of the deposited data

Results flagged for a closer look

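Of 264 genes and list means screened over the 5 IL-8 arrays, 27 had 1 array far from the others, where chance gives about 1 in 20. In 12 of the 27 that array was replicate 1, which carries liver transcripts, in 7 replicate 5, in 4 replicate 4, in 3 replicate 3 and in 1 replicate 2.

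In replicate 1 the level was low for Dysf (5.03, others 5.75 to 5.83), Ryr1 (9.51, others 10.60 to 10.95), Abcc9 (8.52, others 9.06 to 9.24), Mef2d (7.61, others 8.59 to 8.74) and Trio (5.39, others 5.86 to 6.05). It was also low for Aars (6.49, others 6.74 to 6.84), Dctn1 (5.74, others 6.08 to 6.21), Acacb (6.59, others 7.53 to 7.65), Mlxip (6.18, others 7.02 to 7.15) and the laminin gene Lama5 (3.83, others 4.43 to 4.62). The mean of the liver list was high at 6.00 and that of the cytochrome P450 family at 2.57.

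In replicate 5, Cep85l was high at 8.16 (others 7.11 to 7.34), the protocadherin Pcdhgb1 was high at 5.76 and Olfr517 was high at 1.47. Dpt, a dermatopontin of the matrix, was low at 5.80 (others 7.32 to 7.73) and the interferon-induced Rtp4 was low at 4.64. The means of the ribosome biogenesis list (5.79) and the DNA damage list (4.32) were high. In replicate 4, the chemokine Ccl24 was high at 3.12, Vmn1r73 was low at 1.29, and the means of the TGF-beta and BMP list (5.58) and the adipocyte markers (4.64) were high. In replicate 3, Iigp1, an interferon-induced GTPase, was low at 3.06, Igkv6-17 was high at 1.44 and the snoRNA mean was low at 6.12. In replicate 2, Olfr492 was low at 1.93.

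Of the 2021 unnamed entries of the value table, which enter none of the comparisons above, 14 were called higher and 17 lower when all entries were tested together.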

How the results depend on the processing

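Almost no call was stable across the alternatives. Of 146 called genes followed through 20 alternatives, 0 changed direction, but this says little about stability. The genes were picked from these data by p-value or size of change. The t-test, the permutation test, the fit over all 12 arrays and the test of every row also use the same group means. Against 592 genes called (406 higher, 186 lower), one fit over all 12 arrays called 117 (81 higher, 36 lower), and leaving out dim genes called 933 (744 higher, 189 lower). Centring the arrays called 660 (554 higher, 106 lower). Quantile normalization and removal of the span trend each called 2, of which 2 were higher and 0 lower. The counts were 0 called, 0 higher and 0 lower with the liver block (2701 at an unadjusted p under 0.05 in limma), the exact permutation test (2465), the methods' t-test (2289) and the replicate block (2484). With 5 against 3 arrays the permutation test has few possible splits, and the smallest adjusted p it reached was 0.303. Its count of 0 therefore says little about the calls. Leaving out 1 array at a time gave 0 to 3338 genes called, 0 to 1794 higher and 0 to 1544 lower.

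Same-numbered vehicle and IL-8 arrays had correlations of their deviations of -0.32, -0.20 and 0.00 for numbers 1, 2 and 4. These few values gave no sign of a pairing but cannot show whether equal numbers share anything else. The replicate block is therefore not taken as a paired analysis of the mice. Across genes, which are not independent replicates, Spearman's correlation of span and log2 fold change was 0.27. It was 0.244 with the liver block, 0.31 without dim genes, 0.199 after quantile normalization, 0.0065 after removing the span trend, and 0.233 to 0.282 with 1 array left out. The causes were not tested. Many families described have signals near background, which limits the size of any fold change measured there.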
